A study of Mus musculus with 27 samples.

Results

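The transcripts of 6 genes of the aryl hydrocarbon receptor (AhR) machinery were followed in mouse colonic epithelium across 8 oral doses of TCDD and a vehicle. They were the receptor itself (Ahr), its dimerization partner (Arnt), a pair of chaperone subunits of the cytosolic receptor complex (Hsp90ab1 and Ptges3) and a pair of target genes whose products restrain the receptor (Ahrr and Tiparp). The genes were chosen by name, from their known roles and with earlier results of these data known, among 46078 gene rows, and all 6 passed the filter on low counts. The feedback repressors were the ones that moved. At 30 μg/kg TCDD, Ahrr was 73.9-fold and Tiparp 2.05-fold higher than in vehicle mice, while Ahr, Arnt, Ptges3 and Hsp90ab1 differed from vehicle by less than 1.5-fold and none of them passed the test. The call of Tiparp was lost when the index set of the libraries entered the model (adjusted p = 0.417, log2 fold change 0.36). It was also lost with a score of clock genes (adjusted p = 0.0658), where the log2 fold change stayed at 1.04. The call of Ahrr was lost with neither.

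AhR is a ligand-activated transcription factor of the bHLH-PAS family. Without ligand it rests in the cytosol with an HSP90 dimer and the cochaperone p23 (encoded by Ptges3). Ligand such as the dioxin TCDD sends it to the nucleus, where it pairs with ARNT and binds dioxin response elements with the core GCGTG near its target genes, among them the cytochromes P450 Cyp1a1 and Cyp1b1. Ahrr and Tiparp are targets of the same complex and act back on it. AHRR does not need ligand and competes with AhR for ARNT, and TIPARP is a mono-ADP-ribosyltransferase that modifies AhR and lowers its activity and level. In the gut, AhR also senses ligands from diet and microbiota.

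The genes of the feedback pair differ in the sequence upstream of their start sites, which is shown because these were the genes that rose. The sequences are from RefSeq promoter windows on GRCm38.p6, which held entries for Ahrr, Tiparp, Arnt and Ptges3, 4 of the 6 genes. The core was searched in the 250 bases before the start as GCGTG on both strands (CACGC on the strand shown), and capitals mark each match. Ahrr lies on the minus strand of chromosome 13 and its window is chr13:74292332-74292581. For Tiparp, on the plus strand of chromosome 3, the bases chr3:65528197-65528409 are shown, and the last 37 bases of its window are left out because they lie inside the GENCODE gene.
Ahrr: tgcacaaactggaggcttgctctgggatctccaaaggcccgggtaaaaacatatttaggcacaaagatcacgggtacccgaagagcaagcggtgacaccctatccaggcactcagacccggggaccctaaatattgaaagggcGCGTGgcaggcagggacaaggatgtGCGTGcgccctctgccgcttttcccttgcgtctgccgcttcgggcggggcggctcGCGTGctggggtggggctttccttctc
Tiparp: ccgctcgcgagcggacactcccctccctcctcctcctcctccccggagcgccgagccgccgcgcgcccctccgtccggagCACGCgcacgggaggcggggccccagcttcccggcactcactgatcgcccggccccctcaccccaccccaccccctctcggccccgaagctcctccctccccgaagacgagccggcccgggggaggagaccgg

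The Ahrr window held 3 cores, all on the gene's own strand, centred 105, 80 and 25 bases before the start, and the Tiparp window held 1, on the opposite strand, 168 bases before the start. Of 32851 windows of 250 bases in the same table, 28.2% held at least 1 core and 2.77% held 3 or more. Among the genes that did not rise, Arnt had 1 core and Ptges3 had 2. They are shown as stretches of 21 bases, except the second core of Ptges3, 19 bases before the RefSeq start, which lies inside the GENCODE gene.
Arnt, 27 bases before the start: agtttgggGCGTGtcttctgc
Ptges3, 211 bases before the start: gcccgcgaGCGTGctcaggcg

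The longer form TNGCGTG, which contains the core, matched once in the Ahrr window, at the core 25 bases before the start, and in none of the other windows, against 4.1% of all windows. Cores were present in windows of genes that rose and of genes that did not, and binding was not measured here.

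The samples were scrapings of colonic epithelium from 27 male C57BL/6 mice, 3 in each of 9 groups. Mice received sesame oil (vehicle) or TCDD in the same oil by gavage every 4 days for 28 days, 7 gavages in all. They were 28 days old at the start and 56 days old at the end. Each TCDD group kept the same dose at every gavage, which was 30, 10, 3, 1, 0.3, 0.1, 0.03 or 0.01 μg/kg. Tissue was taken at zeitgeber time 0 to 3, within the first hours of light, and each mouse gave 1 RNA-seq library. A mouse had 9305441 to 14371035 reads assigned to genes (median 11651026). All 9 colonic epithelium markers listed were detected in each group, and their summed level was 43226 to 51677 CPM (counts scaled to the size of the library) in vehicle mice and 43799 to 51242 at 30 μg/kg. A pair of features of the samples moves with the dose. The sequencing index in the file names was used a second time from 1 μg/kg upward, so that 16 mice (all up to 0.3 μg/kg, with 1 that received 1 μg/kg) form a first index set and the 11 others, from 1 to 30 μg/kg, a second. A score of clock genes, those that peak with Dbp minus those that peak with Arntl on the log2 scale, was -2.61 ± 0.127 (SD, n = 3) in vehicle mice and -0.80 ± 0.401 at 0.3 μg/kg. From 1 to 30 μg/kg its group means lay between 1.54 and 1.97, and 1 mouse at 0.01 μg/kg, with 1.45, stood near them and apart from the others of its group. Dose and index set cannot be told apart between vehicle and the upper doses, and values within the second set are therefore given for the 6 genes and the pathway lists.

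Ahrr, the AhR repressor (ENSMUSG00000021575, chr13:74211118-74292331, minus strand), had a very low level in vehicle colon. The 3 vehicle mice had 1.67, 1.48 and 2.16 CPM, which rest on only 14 to 22 reads each. From 0.01 to 1 μg/kg the 15 mice ranged from 1.13 to 2.85 CPM and overlapped the vehicle mice in each group. At 3 μg/kg the values were 4.50, 7.46 and 5.74 CPM, each above every mouse at a lower dose. Mice given 10 μg/kg had 75.2, 57.96 and 64.95 CPM and those given 30 μg/kg had 139, 148 and 109 CPM, again with no overlap between neighbouring doses. The mice of the groups from 3 μg/kg upward thus did not overlap those of each other or of any lower dose. How common this is over all genes was counted only against vehicle, where it held for 24.6% to 29.7% of genes at 3 to 30 μg/kg. The step from 10 to 30 μg/kg did not pass the test (adjusted p = 0.0566, edgeR).

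Against vehicle, the log2 fold change of Ahrr was 1.73 (SE 0.26), 5.21 (SE 0.23) and 6.21 (SE 0.23) for the 3, 10 and 30 μg/kg groups, with adjusted p-values of 0.00253, 1.84e-13 and 4.79e-15 in edgeR's quasi-likelihood test. These are 3.32-fold, 37.0-fold and 73.9-fold increases, and a gene was called where the adjusted p was under 0.05 and the fold change at least 1.5. Of all 16496 genes tested, 0.697%, 1.78% and 6.16% were called in these groups. Ahrr was the 1 member called at 3 and at 10 μg/kg, and Ahrr and Tiparp were the 2 called at 30 μg/kg. At 1 μg/kg, where 0.2% of genes were called, the log2 fold change of Ahrr was 0.30 (SE 0.30, adjusted p = 0.794). In the groups from 0.01 up to 0.3 μg/kg, in order of dose, 0% of genes were called by edgeR, with 1047, 766, 1051 and 856 genes at an unadjusted p under 0.05, and the log2 fold changes of Ahrr lay between -0.05 and 0.20.

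Steps between neighbouring doses were compared in the same fit, and those of Ahrr from 1 to 3 and from 3 to 10 μg/kg were called. The step from 1 to 3 μg/kg was 1.43 on the log2 scale (SE 0.24, adjusted p = 0.0296), in a comparison where 0.0242% of genes were called. The step from 3 to 10 μg/kg was 3.48 (SE 0.20, adjusted p = 4.72e-11), an 11.1-fold increase, where 0.0485% of genes were called. From 10 to 30 μg/kg Ahrr was 2.00-fold higher, without overlap of the mice, and this did not pass the test over all genes (log2 fold change 1.00, interval 0.65 to 1.34, adjusted p = 0.0566), where edgeR called 0% with 990 genes at an unadjusted p under 0.05. The remaining steps, among the low doses, called 0% (the lowest of them, up to 0.3 μg/kg, with 885, 459 and 808 genes at an unadjusted p under 0.05) and 0.00606% (0.3 to 1 μg/kg), and Ahrr was not among those called. Within the second index set, Ahrr was 11.2-fold higher at 10 than at 3 μg/kg (adjusted p = 9.50e-07, 0.0309% of 16169 genes called) and 22.3-fold higher at 30 than at 3 μg/kg (adjusted p = 5.94e-08, 0.272% called). All mice at 3, 10 and 30 μg/kg are in that set, so these steps use the same mice as those above and do not cross index sets. The call at 3 μg/kg was lost with a term for the index set (log2 fold change 2.41, adjusted p = 0.0763) and with the clock score as a covariate (1.40, adjusted p = 0.230), whereas those at 10 and 30 μg/kg held under both.

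**Figure D1:**
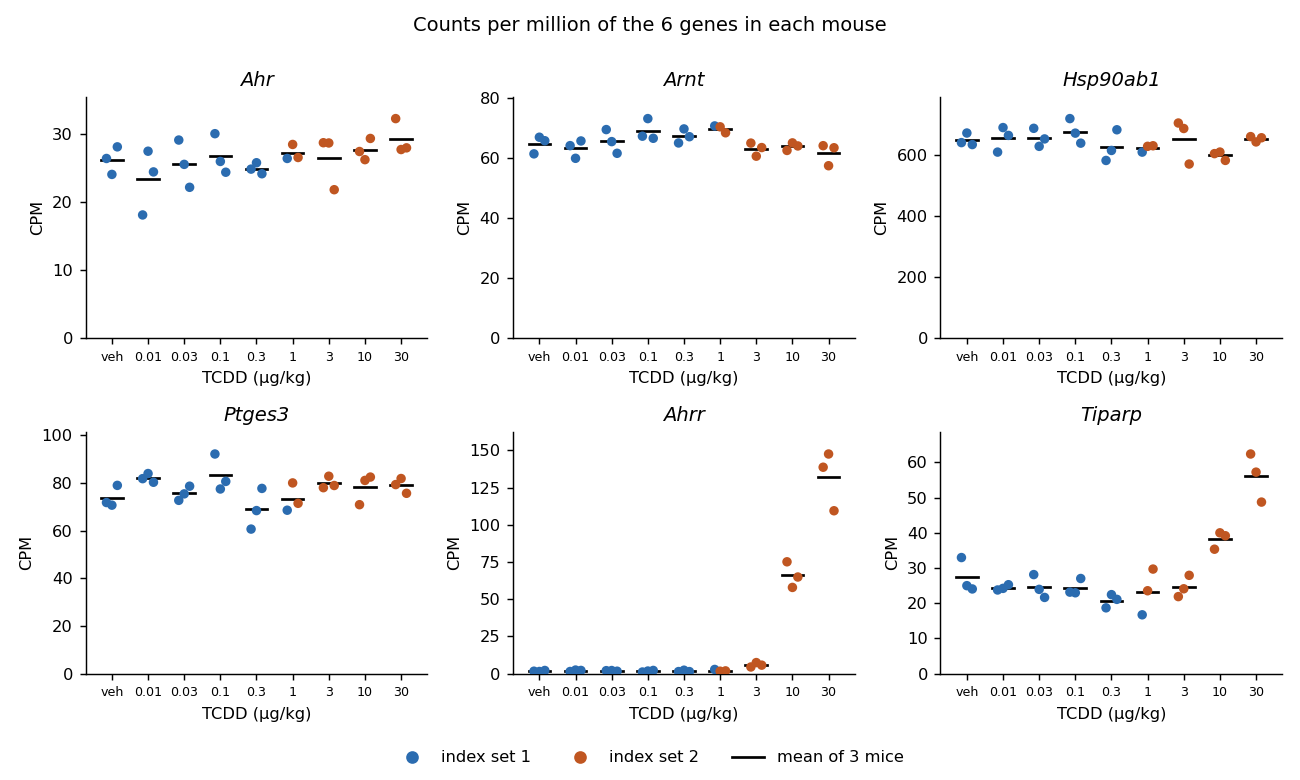
CPM of each of the 6 genes in every mouse, by TCDD dose (μg/kg) on an ordered axis; each panel has its own linear axis from 0, points are mice coloured by index set and bars are means of 3 mice. Ahrr is between 1.13 and 2.85 CPM up to 1 μg/kg and reaches 109 to 148 CPM at 30 μg/kg, Tiparp lies above all vehicle mice at 10 and 30 μg/kg, and Ahr, Arnt, Hsp90ab1 and Ptges3 stay within narrow ranges.

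Tiparp (ENSMUSG00000034640, chr3:65528410-65555518, plus strand) had a much higher level without TCDD and a smaller response, called at a higher dose than that of Ahrr. The vehicle mice had 32.96, 24.98 and 24.05 CPM, with 1 mouse standing above the others. At 0.3 μg/kg the values were 18.7, 22.4 and 21.1 CPM, below all vehicle mice, with a log2 fold change of -0.40 (SE 0.16) that did not pass the test (adjusted p = 0.937). At 3 μg/kg they were 21.9, 24.1 and 27.9 CPM and overlapped vehicle. The 10 μg/kg group had 35.3, 39.98 and 39.2 CPM and the 30 μg/kg group 62.3, 57.2 and 48.7 CPM, all above the highest vehicle mouse. The 3 mice at a dose did not overlap the vehicle mice for 24.6%, 25.2% and 29.7% of all genes for the 3, 10 and 30 μg/kg groups, so a lack of overlap by itself was common.

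The log2 fold change of Tiparp against vehicle was 0.48 (SE 0.16, adjusted p = 0.0947) in the 10 μg/kg group and 1.04 (SE 0.16, adjusted p = 1.84e-04) in the 30 μg/kg group, so that Tiparp was called at the highest dose and not below it. Its steps from 3 to 10 and from 10 to 30 μg/kg were 0.63 and 0.56 on the log2 scale, and neither passed the test (adjusted p = 0.353 and 0.472). Within the second index set Tiparp rose 2.28-fold from 3 to 30 μg/kg (1.19 on the log2 scale, SE 0.13, adjusted p = 0.00165), slightly more than against vehicle. With a term for the index set, the log2 fold change at 30 μg/kg against vehicle was 0.36 (adjusted p = 0.417). That term rests on the mice at 1 μg/kg, where the mouse of the first set had 16.7 CPM and those of the second 23.5 and 29.7 CPM. With the clock score as a covariate the change was 1.04 (adjusted p = 0.0658). A pseudogene, 4931440P22Rik, overlaps exons of Tiparp on the opposite strand and had 8 to 40 reads per mouse against 211 to 867 for Tiparp. Whether the counting used strand is not given in the sources used here, so reads of the overlap cannot be assigned.

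Over all 27 mice, the slope of log2 level per step of dose rank was 0.96 for Ahrr (SE 0.09, adjusted p = 1.17e-08) and 0.11 for Tiparp (SE 0.03, adjusted p = 0.00198). The other members had slopes between -0.01 and 0.02, none called, while 23.4% of all genes had a called slope. With the index set in the model, neither the slope of Ahrr (0.86, adjusted p = 0.0731) nor that of Tiparp (0.04, adjusted p = 0.770) was called.

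**Figure D2:**
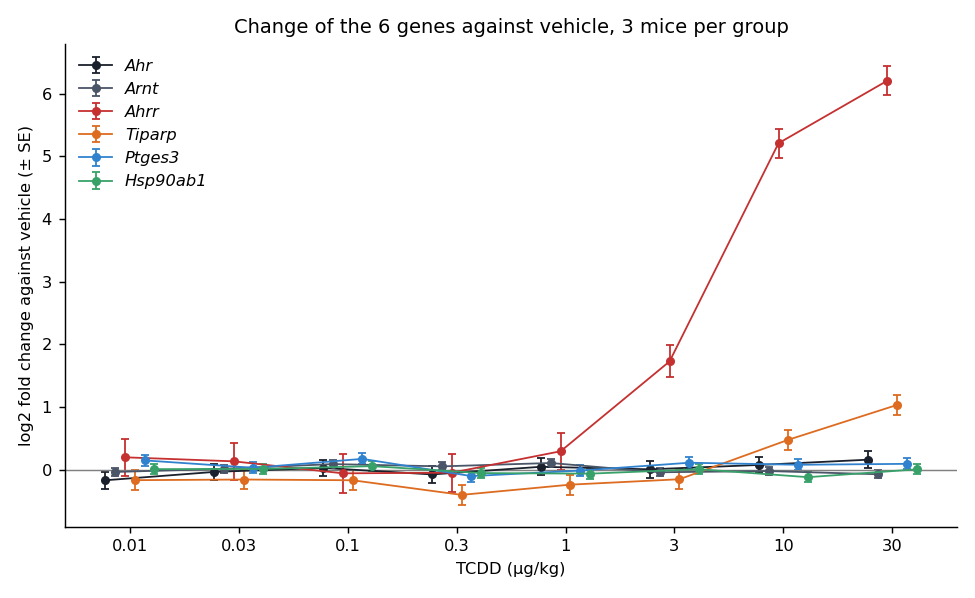
Log2 fold change against vehicle (vertical axis, ± SE, edgeR, 3 mice per group) of the 6 genes at each TCDD dose (horizontal axis, ordered doses in μg/kg). Ahrr leaves the zero line at 3 μg/kg and reaches 6.21 at 30 μg/kg, Tiparp reaches 1.04, and the other 4 genes stay within 0.18 of zero at every dose.

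Set beside the enzymes induced by the same complex, Ahrr and Cyp1b1 were both first called at 3 μg/kg, and Cyp1a1 was called at a lower dose. Cyp1a1, which oxidizes many AhR ligands, had 0 to 1 reads in vehicle mice, 0.42, 0.48 and 0.52 CPM at 0.3 μg/kg and 5.86, 7.33 and 3.87 CPM at 1 μg/kg. Cyp1a1 was first called at 1 μg/kg, Ahrr at 3 μg/kg and Tiparp at 30 μg/kg, and the difference between genes was not tested. For 3, 10 and 30 μg/kg its means were 83.1 ± 49.3, 1103 ± 226 and 2200 ± 198 CPM (SD, n = 3). Cyp1b1, a related oxidase, had 1 to 2 reads in vehicle mice and 4 to 8 at 1 μg/kg, where its mice had 0.444 to 0.794 CPM against at most 0.197 CPM in vehicle mice and it was not called (adjusted p = 0.343). It had means of 1.97 ± 0.203, 115 ± 13.3 and 252 ± 31.7 CPM for 3, 10 and 30 μg/kg. No fold change against vehicle is given for either, because the vehicle mice were under 3 reads. Within the second index set, from 3 to 30 μg/kg, Cyp1b1 rose 127-fold, Cyp1a1 26.5-fold, Ahrr 22.3-fold and Tiparp 2.28-fold, all called. From 10 to 30 μg/kg within that set, Cyp1b1 was the 1 gene called among 16169 (0.00618%), with a 2.19-fold increase, beside 1.99-fold for Ahrr (adjusted p = 0.159) and 1.47-fold for Tiparp (adjusted p = 0.813).

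Ahr (ENSMUSG00000019256, chr12:35497974-35535038, minus strand) did not pass the test at any dose. Vehicle mice had 26.4, 24.0 and 28.1 CPM and mice at 30 μg/kg 32.2, 27.7 and 27.9 CPM, and each treated group overlapped the vehicle group. The full range over 27 mice was 18.1 to 32.2 CPM, with the lowest mouse at 0.01 μg/kg and the highest at 30 μg/kg. At the highest dose its log2 fold change was 0.16 with a 95% interval from -0.11 to 0.43 (adjusted p = 0.455). Its slope over dose rank was 0.02 per step (adjusted p = 0.112), and between 3 and 30 μg/kg inside the second index set the change was 0.16 (adjusted p = 0.698). The level of Ahr rested on 185 to 448 reads per mouse, and a lincRNA gene on the opposite strand, Gm48236, overlaps its exons, so reads of the overlap cannot be assigned. In scrapings, fewer cells of a type and less RNA per cell cannot be told apart, which holds for every level given here.

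Arnt (ENSMUSG00000015522, chr3:95434388-95497240, plus strand), the partner that AhR shares with the hypoxia factors, was among the steadiest genes of the series. Its values were 61.5, 67.04 and 65.9 CPM in vehicle mice and 64.2, 57.5 and 63.5 CPM at 30 μg/kg. The spread within groups was 0.06 on the log2 scale, and only 0.81% of genes had a smaller one, the median over all genes tested being 0.21. At 1 μg/kg the mice had 70.8, 70.5 and 68.5 CPM, all above vehicle, a log2 fold change of 0.11 that did not pass the test (adjusted p = 0.610). At the highest dose its change on the log2 scale was -0.07 with an interval from -0.20 to 0.07 (adjusted p = 0.537), and inside the second index set it was -0.03 between 3 and 30 μg/kg (adjusted p = 0.932).

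The chaperone subunits were abundant, and neither was called at any dose. Hsp90ab1 (ENSMUSG00000023944, chr17:45567775-45573271, minus strand), the constitutive HSP90 beta, had 642, 673 and 636 CPM in vehicle mice and 662, 644 and 658 CPM at 30 μg/kg. At the highest dose its log2 fold change was 0.01 (interval -0.15 to 0.17, adjusted p = 0.956). The mice at 10 μg/kg had 606, 611 and 584 CPM, all below vehicle, a log2 fold change of -0.12 that did not pass the test (adjusted p = 0.463). Ptges3 (ENSMUSG00000071072, chr10:128058954-128077272, plus strand), which encodes p23, had 71.7, 70.6 and 78.9 CPM in vehicle mice and 79.2, 81.8 and 75.6 CPM at 30 μg/kg. At that dose its log2 fold change was 0.10 (interval -0.08 to 0.28, adjusted p = 0.509), and the mice at 0.01 μg/kg, with 81.7, 83.9 and 80.2 CPM, lay above vehicle without passing the test (adjusted p = 0.805). Inside the second index set, between 3 and 30 μg/kg, Hsp90ab1 changed by 0.002 (adjusted p = 0.996) and Ptges3 by -0.01 (adjusted p = 0.971) on the log2 scale. Both genes have processed copies in the genome, and 30.7 to 37.1% of the alignments tallied per library were set aside as not unique, so their levels may be undercounted.

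Levels were compared between genes per kilobase of annotated exon. In vehicle mice the order was Hsp90ab1 with 217 ± 6.75 CPM per kilobase, Ptges3 with 33.3 ± 2.03, Arnt with 8.09 ± 0.365, Tiparp with 6.27 ± 1.12, Ahr with 4.24 ± 0.329 and Ahrr with 0.187 ± 0.0373 (SD, n = 3). No neighbours in that order overlapped, although the highest Tiparp mouse and the lowest Arnt mouse lay close. At 10 μg/kg Ahrr reached 6.99 ± 0.917 and its mice overlapped those of Arnt (7.99 ± 0.158), which in turn overlapped those of Tiparp (8.75 ± 0.569). At 30 μg/kg Ahrr, with 13.97 ± 2.11, and Tiparp, with 12.9 ± 1.58, overlapped each other and both lay above Arnt (7.71 ± 0.459) and Ahr (4.75 ± 0.414). The repressor transcript thus went from the lowest of the 6 to a level above the receptor and its partner.

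The ratio of Ahrr to Ahr within each mouse, both per kilobase, was 0.0401 to 0.0502 in vehicle mice. It was 0.103 to 0.172, 1.44 to 1.79 and 2.56 to 3.48 for 3, 10 and 30 μg/kg. The ratio passed 1 between 3 and 10 μg/kg. That of Tiparp to Ahr was 1.21 to 1.77 in vehicle mice and 2.47 to 2.92 at 30 μg/kg. The ratio of Ahr to Arnt ran from 0.466 to 0.557 in vehicle mice and from 0.571 to 0.652 at 30 μg/kg, which do not overlap. At 3 μg/kg (0.445 to 0.613) and 10 μg/kg (0.522 to 0.594) it overlapped both, as it did at 0.01 μg/kg (0.366 to 0.594). Neither gene passed the test by itself. How often such ratios lack overlap over all genes was not counted.

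**Figure D3:**
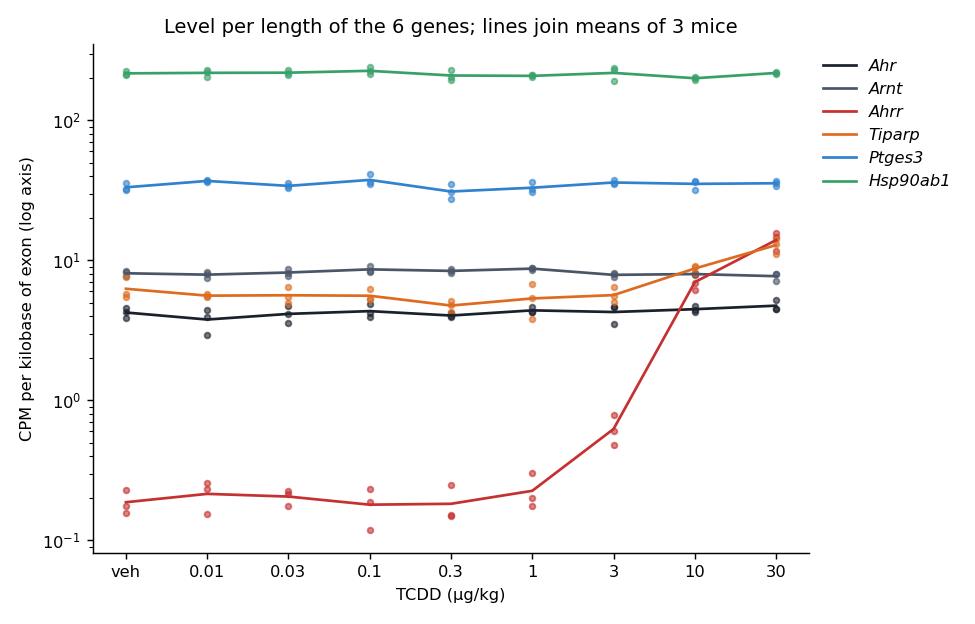
CPM per kilobase of exon on a log axis for the 6 genes by ordered TCDD dose (μg/kg); points are mice and lines join means of 3 mice. Ahrr starts at 0.187, far under the other genes, and at 30 μg/kg lies at 13.97, beside Tiparp at 12.9 and above Arnt at 7.71 and Ahr at 4.75.

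The other genes of the pathway were counted on lists by role. Of 11 further subunits of the receptor complex and HSP90 cochaperones, 2 were called higher and 0 lower at 30 μg/kg (median log2 fold change 0.06, against -0.002 over all genes), where 6.16% of all genes were called. They were Hspa8, the constitutive HSP70 that hands client proteins to HSP90, from 146 ± 9.55 to 223 ± 16.0 CPM (0.62, adjusted p = 2.64e-04), and Fkbp5, an immunophilin of steroid receptor complexes, from 187 ± 24.9 to 309 ± 70.7 CPM (0.72, adjusted p = 0.0128). Src, a kinase found with AhR in the cytosol, passed the adjusted p (0.0230) with a change under 1.5-fold (0.36). The inducible HSP90 alpha gene Hsp90aa1 had a log2 fold change of -0.32, which did not pass the test. None of the 11 was called at 3 or 10 μg/kg, where 0.697% and 1.78% of all genes were called, which is near the background.

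Of 13 bHLH-PAS relatives 9 were tested. At 30 μg/kg, where 6.16% of all genes were called, 1 was called higher and 3 lower (median -0.66). The relatives that fell were core clock factors, Arntl (-2.86, adjusted p = 1.42e-04), Npas2 (-2.18, adjusted p = 6.75e-05) and Clock (-0.66, adjusted p = 0.0108), and they are also among the genes of the clock score. Hif3a, a hypoxia-inducible factor subunit that likewise pairs with ARNT, rose from 9.84 ± 0.834 to 20.4 ± 2.45 CPM (1.05, adjusted p = 5.89e-04). Arntl and Npas2 were called lower from 1 μg/kg upward (-1.91, adjusted p = 0.0352, and -1.42, adjusted p = 0.0316, at 1 μg/kg), and Hif3a higher from 3 μg/kg upward. With the clock score as a covariate, which holds Arntl, Npas2 and Clock themselves, the calls at 30 μg/kg of Arntl (-0.16, adjusted p = 0.882), Npas2 (-0.18, adjusted p = 0.764) and Hif3a (0.26, adjusted p = 0.663) were lost, while that of Clock held (-1.11, adjusted p = 0.0381). All 4 held with a term for the index set. Inside the second index set, where 0.272% of genes were called between 3 and 30 μg/kg, 0 of the 9 relatives were, which is near the background. Epas1, which encodes HIF2 alpha, passed the adjusted p (0.00560) with a change under the fold threshold (0.52), and Hif1a had a log2 fold change of 0.13 (adjusted p = 0.854). For Ahrr and Tiparp the clock score was examined only as the covariate given above.

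Coregulators, the receptor's ubiquitin ligase and the relatives of TIPARP gave no calls against vehicle at any dose. At 30 μg/kg, 0 of 18 coregulators, 0 of 4 subunits of the CUL4B ligase and 0 of 17 genes of the PARP family and MacroD hydrolases were called by edgeR, with medians of 0.05, 0.19 and 0.03. With 6.16% of all genes called, a count of 0 in lists of this size is near the background. Among coregulators, Ep300 (0.26), Hdac4 (0.40) and Nrip1 (-0.26) passed the adjusted p with changes under 1.5-fold. Of the ADP-ribosyltransferase genes counted, Tiparp was the one called at that dose. Over dose rank, where 23.4% of all genes were called, 4 coregulators had a called slope upward and 1 downward, and 5 of the 17 PARP and MacroD genes had one upward, at most 0.06 per step.

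Of 11 genes listed as AhR targets, enzymes and the regulator Nfe2l2, 9 were tested. At 30 μg/kg, where 6.16% of all genes were called, 6 were called higher and 0 lower (median 0.71). Beyond Cyp1a1 and Cyp1b1 these were the quinone reductase Nqo1 (0.97, adjusted p = 0.00929), the glutathione transferase Gsta1 (1.28, adjusted p = 0.00748), the glucuronosyltransferase Ugt1a6b (0.71, adjusted p = 0.0265) and the antioxidant regulator Nfe2l2 (0.64, adjusted p = 9.41e-04). Ugt1a6a and Ugt1a6b share exons of the Ugt1a cluster, so their counts are uncertain. Only Cyp1a1 and Cyp1b1 of this list were called at 3 and 10 μg/kg, where 0.697% and 1.78% of all genes were called. Only those 2 of all the pathway lists were called between 30 and 3 μg/kg within the second index set (0.272% of all genes).

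Several of these calls rested on single mice. Without vehicle mouse 2, Fkbp5 (adjusted p = 0.0648), Clock (0.0513), Nqo1 (0.0574), Gsta1 (0.0501) and Ugt1a6b (0.0881) were no longer called, and Nfe2l2 fell under the fold threshold. Without mouse 66 of the 30 μg/kg group the same 5 genes were lost (adjusted p = 0.0799, 0.0622, 0.0539, 0.0586 and 0.0760). Ugt1a6b was also lost without vehicle mouse 3 or 4 or mouse 67, Clock without mouse 67, and Hspa8 fell under the fold threshold without mouse 65. The calls of Ahrr and Tiparp held without any single mouse.

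Other settings also ended calls of list genes at the highest dose. When the index set entered the model, Hspa8 (0.49, adjusted p = 0.104), Fkbp5 (0.70, 0.224), Nqo1 (1.13, 0.116), Ugt1a6b (0.64, 0.356) and Nfe2l2 (0.39, 0.270) were no longer called. With the clock score as a covariate the same 5 were lost, Hspa8 at 0.40 (adjusted p = 0.215), Fkbp5 at 1.00 (0.101), Nqo1 at 0.95 (0.249), Ugt1a6b at 0.16 (0.859) and Nfe2l2 at 0.61 (0.121), and so was Gsta1 at 0.98 (0.348). By limma voom, Fkbp5, Clock, Nqo1, Ugt1a6b and Gsta1 did not reach the posterior probability required.

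**Figure D4:**
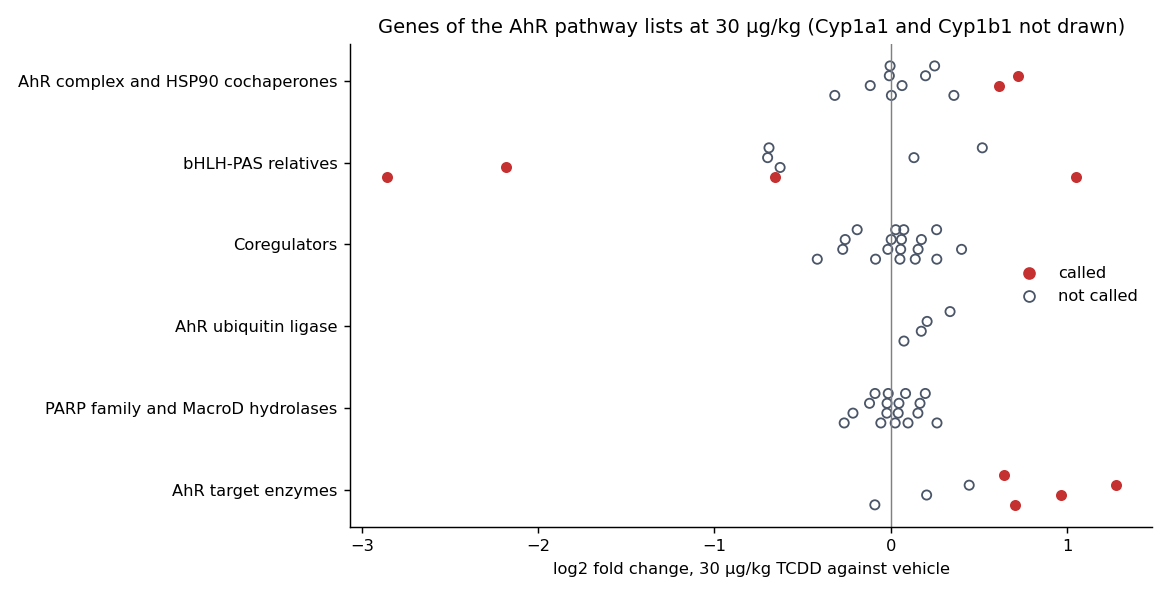
Log2 fold change at 30 μg/kg TCDD against vehicle (horizontal axis) of the genes tested on each pathway list (vertical axis, points spread for visibility); filled points were called and open points were not, and Cyp1a1 and Cyp1b1 are not drawn. The called points are Hspa8 and Fkbp5 among the cochaperones, Hif3a on the right and Arntl, Npas2 and Clock on the left among the bHLH-PAS relatives, and Nqo1, Gsta1, Ugt1a6b and Nfe2l2 among the target enzymes.

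The genes whose levels followed each member most closely were ranked by Pearson's r of log2 CPM over the 27 mice, among 14566 genes. The mice share the dose, the index set and the clock score, so these values describe a shared pattern. For Ahrr the 5 closest were Cyp1b1 (r = 0.98), Exoc3 (0.97), the skeletal actin gene Acta1 (0.96), Wfikkn2 (0.95) and Deptor (0.95), an inhibitor of mTOR. Exoc3, a subunit of the exocyst, is also Ahrr's neighbour on the chromosome. It lies 2386 bases beyond the end of Ahrr on the same strand, at chr13:74169488-74208732, and had 41.4 ± 1.07 CPM in vehicle mice and 50.01 ± 1.34, 68.9 ± 1.88 and 70.3 ± 2.42 CPM for 3, 10 and 30 μg/kg. Its log2 fold changes for the upper 2 doses were 0.74 (adjusted p = 7.84e-07) and 0.76 (adjusted p = 3.22e-07), both called, and it levelled off where Ahrr was 2.00-fold higher. Exoc3, Acta1 and Pam are compared with vehicle across index sets. Acta1 rose from 3.83 ± 1.11 to 142 ± 23.4 CPM at 30 μg/kg (5.21, adjusted p = 1.95e-12).

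For Tiparp the closest were Ahrr (r = 0.86), Deptor (0.85), Cyp1b1 (0.84), Pam (0.82), which encodes a peptide-amidating enzyme, and Sytl2 (0.82). Pam rose from 190 ± 37.6 to 497 ± 41.9 CPM at 30 μg/kg (1.39, adjusted p = 7.22e-05). For Ahr the highest values were lower, with Fam189a1 (0.70), Rassf6 (0.67), Rpl5 (0.67), Pabpc1 (0.66) and Klf8 (0.66). None of these 5 was called at 30 μg/kg, where 6.16% of all genes were called, which is near the background. Rpl5, a ribosomal protein gene, and Pabpc1, the poly(A)-binding protein, had log2 fold changes of 0.22 and 0.23. Pabpc1 passed the adjusted p (0.0418) with a change under 1.5-fold.

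Markers of other tissues were counted at the highest dose, where 6.16% of all genes were called. At 30 μg/kg the summed level of 4 smooth muscle markers was 83.0 to 553 CPM, against 42.1 to 75.7 CPM in vehicle mice, with 0 of 4 called. Of 4 adipocyte markers 2 were called higher (14.8 to 153 against 1.48 to 15.8 CPM), as were 2 of 3 endothelial markers (17.1 to 34.3 against 14.9 to 18.2 CPM), 1 of 4 fibroblast markers (57.4 to 123 against 56.0 to 74.6 CPM) and 2 of 4 small intestine markers (51.1 to 180 against 39.8 to 44.2 CPM). The upper ends for adipocytes and small intestine are 1 mouse each, since the medians at 30 μg/kg were 33.5 and 63.01 CPM. Lower doses also had high sums, with 47.9 to 97.3 CPM for adipocytes and 54.9 to 209 CPM for smooth muscle at 0.01 μg/kg, and 78.6 to 272 CPM for smooth muscle at 0.3 μg/kg, where Ahrr was not called. For leukocytes (17.6 to 18.4 against 24.8 to 27.7 CPM), B and plasma cells (29.0 to 108 against 30.8 to 45.0 CPM), macrophages (7.53 to 12.4 against 7.17 to 10.2 CPM) and hepatocytes (173 to 371 against 271 to 336 CPM) none was called. No marker on these lists was at 0 in all mice of either group. Their part in the rise of Ahrr and Tiparp was not tested.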

How the data were processed

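RNA-seq was measured in 27 mice. Raw counts of reads per gene were deposited by the authors, 1 table per mouse. The submitters' processing notes name FastQC 0.11.3, Trimmomatic 0.33, TopHat2 2.1.0, SAMtools 1.2.0, HTSeq 0.6.1, DESeq and GRCm38; the annotation and use of strand are not given in the sources used here. Rows without a gene were dropped: reads on no feature made up 29.1 to 33.3% of a table, non-unique alignments 30.7 to 37.1% and ambiguous reads 0.392 to 0.607%. No pair of mice of a group agreed within sampling noise.

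With edgeR 4.0.16 (R 4.3.3), filterByExpr (minimum count 10) kept 16496 genes, TMM factors gave CPM, and glmQLFit was run on all 9 groups. Each dose was compared with vehicle and with the next lower dose, the slope over dose rank was tested, and the second index set was fitted separately (16169 genes). P-values were adjusted by Benjamini-Hochberg over all genes tested. Calls needed an adjusted p below 0.05 and a change of 1.5-fold or more, and slopes the adjusted p alone. Standard errors were the log2 fold change divided by the root of F. Log2 CPM used a prior count of 2. Exon lengths and coordinates are from GENCODE M21 (GRCm38). The steps were tested on simulated counts. Low counts limit precision for Ahrr, Cyp1a1 and Cyp1b1 in vehicle mice, and for other genes such as Wfikkn2 (11 to 12 reads) and Klf8 (11 to 16 reads). A floor of 3 reads applied to fold changes.

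The 6 genes, all lists and tests were chosen with earlier results of these data known. Named were the 6 genes, called list genes, the 5 genes most alike Ahrr, Tiparp and Ahr (mean of at least 1 CPM), and Cyp1a1 and Cyp1b1. Src, Hsp90aa1, Epas1, Hif1a, Ep300, Hdac4 and Nrip1 were named after their values were seen. Alternatives were RLE size factors, DESeq2 1.42.0, limma 3.58.1 voom (posterior probability 0.8 or more), unfiltered genes, a fit of the 2 groups in question alone, omission of single mice, adjusted p without the fold threshold, a term for the index set, the clock score (9 minus 5 genes), the first principal component of 25 Hox genes, dose as log10 with vehicle at 0.001 μg/kg, and the longer motif.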

Additional observations from a re-analysis of the deposited data

How the results depend on the processing

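The calls of Ahrr at 10 and 30 μg/kg, and those of Ahrr and Tiparp between 30 and 3 μg/kg within the second index set, kept their direction and stayed called under every alternative run for them. The log2 fold change of Ahrr at 30 μg/kg ranged from 5.88 to 6.88, and without single mice from 6.10 to 6.38. That of Tiparp at 30 μg/kg was at least 0.95 without any single mouse. Whatever the alternative, Ahr, Arnt, Ptges3 and Hsp90ab1 were not called.

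With a term for the index set, Ahrr at 3 μg/kg (2.41), Tiparp at 30 μg/kg (0.36) and the slopes of Ahrr (0.86) and Tiparp (0.038) were no longer called, so that 0, 1 and 0 members were called at 3 μg/kg, at 30 μg/kg and in slope. The value changed sign for Tiparp at 10 μg/kg (-0.19), Ahr (-0.049), Ptges3 (-0.029) and Hsp90ab1 (-0.035) at 3 μg/kg, Arnt (0.0082) and Ptges3 (-0.061) at 10 μg/kg, Ptges3 (-0.046) and Hsp90ab1 (-0.037) at 30 μg/kg, and the slopes of Arnt (0.0085) and Ptges3 (-0.016). Tiparp at 3 μg/kg kept its sign and moved from -0.15 to -0.82, not called. Over all genes, 2 against 115 were called at 3 μg/kg, 58 against 294 at 10 μg/kg and 11 against 3865 in slope. With the clock score, Ahrr at 3 μg/kg (1.40), Tiparp at 30 μg/kg (1.04) and its slope (0.14) were no longer called, leaving 0, 1 and 1 members. Ahr (-0.068) and Hsp90ab1 (-0.0099) at 3 μg/kg and Hsp90ab1 at 30 μg/kg (-0.012) changed sign, and 7, 23 and 423 genes were called at 3, 10 and 30 μg/kg and 39 in slope. The cause of these losses was not tested.

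For the 6 genes, other settings that kept all mice changed no call and 1 sign, and they moved counts over all genes. By limma voom, 5 genes of the pathway lists were no longer called at 30 μg/kg. Adjusted p alone gave 231, 532 and 1818 genes at 3, 10 and 30 μg/kg, and limma voom 53, 95 and 218, with Ahr at 3 μg/kg at -0.0060. At 3 μg/kg, no filter gave 180, DESeq2 197 and the fit of the 2 groups 230, and that fit gave 662 against 1016 at 30 μg/kg.

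Without single mice, the counts were 48 to 97 at 3 μg/kg, 163 to 228 at 10 μg/kg and 590 to 1084 at 30 μg/kg, lowest each time without vehicle mouse 2. Within the second set they were 5 to 20 for 10 against 3 μg/kg and 14 to 108 against 44 for 30 against 3 μg/kg, lowest without mouse 49 and highest without mouse 65. Uncalled members changed sign around zero: Tiparp (-0.25 to 0.016), Ahr (-0.053 to 0.13) and Hsp90ab1 (-0.038 to 0.10) at 3 μg/kg, Arnt at 10 μg/kg (-0.044 to 0.0066), Hsp90ab1 at 30 μg/kg (-0.0062 to 0.036) and the slope of Ptges3 (-0.00046 to 0.0054). The same held within the second set for 10 against 3 μg/kg in Ahr (-0.044 to 0.14), Arnt (-0.00049 to 0.043) and Ptges3 (-0.074 to 0.037), and for 30 against 3 μg/kg in Arnt (-0.059 to 0.019), Ptges3 (-0.043 to 0.011) and Hsp90ab1 (-0.086 to 0.051). Mice carry no number that pairs them across groups. No paired analysis was possible because the groups share no replicate numbers. The longer motif left 1 match for Ahrr and 0 for Tiparp, Arnt and Ptges3. With 14 to 22 reads per vehicle mouse, depth limits changes of Ahrr at the low doses, where the interval at 0.3 μg/kg ran from -0.67 to 0.58 on the log2 scale.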
